A study of Mus musculus with 2 samples.

Results

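The 9 genes described here, Shh, Ptch1, Boc, Hhip, Smo, Sufu, Gli1, Gli2 and Gli3, are core components of the Sonic hedgehog pathway, and they were taken by symbol from the gene tables of both libraries, which hold 43346 genes in all. RNA with poly-A tails came from embryonic day 18 C57BL/6J central nervous tissue and was sequenced for 2 biological replicates, each pooled from littermates of both sexes. Both libraries belong to 1 group with no treatment and no altered allele, so the data give levels at this age and the spread between 2 pools. The labels do not say how many embryos or which regions each pool held.

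Sonic hedgehog is a secreted, lipid-modified protein that patterns the ventral neural tube and later drives the division of cerebellar granule cell precursors. Without ligand, PTCH1 keeps SMO out of the primary cilium, SUFU holds the GLI proteins back and GLI3 is cut to a repressor. With ligand bound, SMO enters the cilium and full-length GLI2 and GLI3 activate targets that include Gli1, Ptch1 and Hhip, so the pathway induces some of its own parts.

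Transcript sequences are shown first for 3 of the splice events described further down, because they show which bases an isoform gains or loses. The 2 Sufu lines are the join of exons 6 and 7 with the upstream and with the downstream of 2 acceptor sites 3 bases apart (chr19, GRCm38, plus strand; exon 7 is chr19:46453159-46453315 in Sufu-202). The Boc line is the join of exons 16 and 17 of Boc-201 (chr16:44487350-44487429, minus strand), of which most reads lacked the first 3 bases. The Ptch1 line is the join of exon 10 of Ptch1-206 (chr13:63537482-63537608, minus strand) to the exon before it. This 127-base exon was read at a low share. In the line the first 15 bases end the exon before, and exon 10 starts at tacTGA. Capitals mark the 3 bases that depend on the acceptor in Sufu and Boc, and the annotated stop codon in Ptch1. All are 5′ to 3′ and come from GENCODE M21 transcripts.
Sufu-202, upstream acceptor: gatccgcacctgcaaCAGgagagagttgac
Sufu-201, downstream acceptor: gatccgcacctgcaagagagagttgac
Boc-201, upstream acceptor: ggggagcttgcccagCAGcgggaagacacc
Ptch1-206, exon 10: gcgttctccctccagtacTGAtggttcatc

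Promoters are shown for Ptch1 and Hhip, because both are targets of the pathway as well as parts of it and stood at opposite ends of the levels. Each line holds the 250 bases before the RefSeq start on GRCm38.p6, 5′ to 3′ on the gene's strand, and capitals mark CCACCC, the core of the GLI consensus. The Ptch1 window is chr13:63565736-63565985 and the Hhip window chr8:80058009-80058258, both on the minus strand. The Ptch1 window lies inside the gene, whose span reaches 5′ to chr13:63573598, so a start further 5′ was not searched.
Ptch1: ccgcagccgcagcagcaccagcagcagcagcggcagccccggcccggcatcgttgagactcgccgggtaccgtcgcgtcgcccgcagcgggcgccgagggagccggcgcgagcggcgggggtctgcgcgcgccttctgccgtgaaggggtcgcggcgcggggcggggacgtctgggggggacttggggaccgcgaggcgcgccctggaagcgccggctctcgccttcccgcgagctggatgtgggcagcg
Hhip: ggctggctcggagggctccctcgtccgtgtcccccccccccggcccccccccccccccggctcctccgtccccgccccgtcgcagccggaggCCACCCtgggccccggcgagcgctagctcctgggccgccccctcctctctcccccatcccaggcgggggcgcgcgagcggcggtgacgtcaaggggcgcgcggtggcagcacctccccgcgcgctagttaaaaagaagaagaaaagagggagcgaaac
The full GLI consensus GACCACCCA, searched on both strands over the 300-base windows from 250 bases before to 50 after the start, was in 0 of the 6 members with an entry (Ptch1, Sufu, Smo, Gli2, Gli3 and Hhip) and in 0.253% of all 32851 promoters. Its core CCACCC, which lies inside the consensus, was in Gli2, Gli3, Hhip and Smo, 4 of the 6, against 31.5% of all promoters. In Hhip it began at -158 relative to the start.

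The gene tables assign 93979836 fragments to genes in replicate 1 and 137012773 in replicate 2, and the limit that a count of 0 allows, 3 fragments, is 0.0319 and 0.0219 CPM (counts scaled to the library total). Neuron markers (Tubb3, Snap25, Map2) summed to 3331 and 3021 TPM, a level per length of transcript, in replicates 1 and 2, and all 3 were detected. The libraries differed in markers of tissue outside or at the edge of the brain. The 5 skeletal muscle markers summed to 13.7 TPM in replicate 1 and 467 TPM in replicate 2. The 5 cartilage and bone markers summed to 9.80 and 49.4 TPM, and the 5 choroid plexus markers to 447 and 1427 TPM. Most of the bone and cartilage difference lay in Ibsp (0.47 and 27.9 TPM), while Col2a1 was at 7.62 and 12.7 TPM. Ttr (427 and 1389 TPM) made up most of the choroid plexus sums. All 5 choroid plexus markers were higher in replicate 2, Otx2 by the least (10.65 and 12.52 TPM). The 4 epidermis markers went the other way, at 61.2 and 5.72 TPM. That difference lay mostly in Krt6a (32.9 and 0.03 TPM) and Krt14 (21.0 and 0.42 TPM), while Krt10 was at 6.49 and 5.21 TPM. No gene of these lists was at 0 in either library.

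The pathway was expressed at low to moderate levels, and 8 of the 9 genes reached a TPM of 1, the limit used for detection, in both libraries. The exception was Hhip. Of all genes 34.2% were detected by this rule, and of protein-coding genes 62.9%. Mean TPM over the 2 libraries ran from 0.85 for Hhip to 14.9 for Ptch1, and every member lay under the median of detected genes, 17.7 TPM. Even Ptch1 was above only 45.3% of the detected genes.

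**Figure D1:**
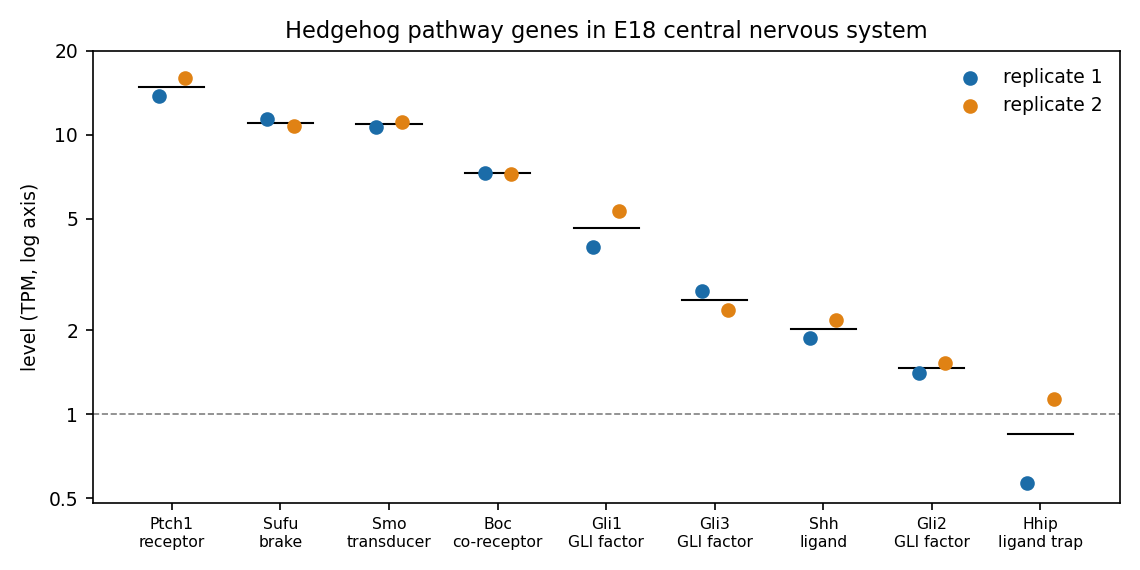
Level of each member in TPM on a log axis, with replicate 1 left of replicate 2, the mean of both as a line and the detection limit of 1 TPM dashed. Ptch1 is highest at 13.74 and 15.96 TPM, and Hhip is lowest at 0.57 and 1.13 TPM, with 1 library on each side of the limit.

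Shh (chr5:28456815-28467256, GRCm38, minus strand), which encodes the ligand, had 1.87 TPM in replicate 1 and 2.17 TPM in replicate 2, from 278 and 489 fragments. Its mean of 2.02 ± 0.21 TPM (SD, n = 2) was above only 7.5% of detected genes. In bulk tissue, fewer cells of a type and less RNA per cell cannot be told apart, which holds for every level given here. The other hedgehog ligands did not reach the limit in both libraries: Dhh, the ligand made by Schwann cells, was at 0.53 and 1.98 TPM, and Ihh, the ligand of growth plate cartilage, was at 0.27 and 0.52 TPM. Both were past 1.5-fold higher in replicate 2, the library with the higher cartilage and muscle markers, and the part of that tissue in the result was not tested.

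The receptor Ptch1 (chr13:63508328-63573598, minus strand) was the highest member, with 13.74 and 15.96 TPM in replicates 1 and 2, from 5528 and 9517 fragments. Its mean was 14.9 ± 1.57 TPM (SD, n = 2). Boc (chr16:44485049-44558897, minus strand), a cell-surface co-receptor that binds the ligand together with PTCH1, had 7.31 and 7.25 TPM and was the most even member, with a mean of 7.28 ± 0.042 TPM. Boc lay at 0.49 times the level of Ptch1 (log2 ratio -1.02 ± 0.16, SD, n = 2). Among the related receptors, the co-receptors Gas1 (10.9 and 12.2 TPM) and Cdon (9.51 and 8.80 TPM) were the highest, and Lrp2, the endocytic receptor megalin, was the lowest at 0.56 and 0.79 TPM.

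Hhip (chr8:79965851-80058006, minus strand) encodes a membrane protein that binds and sequesters the ligand, and it was the lowest member and the least even. It had 0.57 TPM in replicate 1 and 1.13 TPM in replicate 2, from 92 and 233 fragments, and its mean was 0.85 ± 0.40 TPM (SD, n = 2). The bounds that the authors deposited with these values, 0.41 to 0.79 TPM and 0.93 to 1.36 TPM, did not overlap. This was not particular to Hhip, since the bounds of Ptch1, Gli1 and Gli3 did not overlap between libraries either. Ptch1 was 24.1-fold above Hhip in replicate 1 and 14.1-fold in replicate 2 (log2 ratio 4.21 ± 0.55), so the receptor was the higher of both in each library. The level of Hhip sums a coding and a noncoding transcript. The coding one alone had 0.31 and 0.48 TPM in replicates 1 and 2, under the detection limit in both, so these folds understate its distance from Ptch1.

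Smo (chr6:29735503-29761365, plus strand), the seven-pass membrane protein that passes the signal on, had 10.7 and 11.2 TPM in replicates 1 and 2, from 2285 and 3606 fragments. The log2 ratio of Ptch1 over Smo was 0.44 ± 0.11 (SD, n = 2), which is 1.36-fold. Among the other genes that act on SMO at the cilium, the kinase gene Grk2 (102 and 91.7 TPM) and Iqce (47.7 and 45.0 TPM) were the highest. Evc2, which forms a ciliary complex with Evc, was the lowest at 6.24 and 6.66 TPM, and all 6 genes of this role, Smo included, were detected.

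Sufu (chr19:46396896-46488804, plus strand), which binds GLI proteins and keeps them inactive, had 11.4 and 10.7 TPM in replicates 1 and 2, from 2659 and 3789 fragments. It exceeded each GLI gene in both libraries. The log2 ratio was 1.26 ± 0.37 over Gli1, 2.12 ± 0.10 over Gli3 and 2.91 ± 0.15 over Gli2 (SD, n = 2), so Sufu was 2.40-fold, 4.33-fold and 7.53-fold higher. All 8 brakes on GLI were detected, Sufu included, with the kinases Csnk1a1 (146 and 143 TPM) and Prkacb (140 and 134 TPM) highest and the ciliary kinesin Kif7 (3.22 and 3.15 TPM) lowest.

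The 3 GLI genes encode the zinc-finger factors at the end of the pathway. Gli1 (chr10:127329882-127341974, minus strand), an activator that is itself a target, had 3.97 and 5.35 TPM in replicates 1 and 2, from 821 and 1672 fragments. Gli3 (chr13:15463235-15730026, plus strand), the main source of repressor, had 2.76 and 2.36 TPM, from 1216 and 1651 fragments. Gli2 (chr1:118834132-119053619, minus strand), the main activator in the mouse, had 1.41 and 1.53 TPM, from 541 and 827 fragments.

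Of the summed TPM of the 3 GLI genes, Gli1 took 48.8% in replicate 1 and 57.9% in replicate 2, Gli3 33.9% and 25.5%, and Gli2 17.3% and 16.6%. The order was the same in both libraries, but the log2 ratio of Gli3 over Gli1 varied, at -0.52 and -1.18 (mean -0.85 ± 0.46, SD, n = 2). It also turned with the measure. As plain CPM, with no correction for length, Gli3 lay above Gli1 (log2 ratio 0.27), and so it did in 1 of the 2 mm9 replicates, where the authors' RPKM values were 0.564 for Gli3 and 0.507 for Gli1, against 0.381 and 0.708 in the other. Gli2 was at 0.32 times Gli1, and Gli3 at 1.74 times Gli2.

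From highest to lowest the members ran Ptch1, Sufu, Smo, Boc, Gli1, Gli3, Shh, Gli2 and Hhip. Sufu and Smo overlapped between libraries and changed places, while the libraries of every other pair of neighbours were separate, in 7 of 8 pairs. Neighbours were measured in the same 2 libraries, where an exact two-sided sign-flip test cannot go under p = 0.5, so no test of this order is given. The closest separate neighbours were Gli3 and Shh, 1.27-fold apart in mean. In the mm9 gene values, which the files call RPKM and which were computed on another annotation, the same genes led and trailed: Ptch1 was highest at 3.16 and 3.81 and Hhip lowest at 0.0561 and 0.0957, and by the mean of both replicates only Sufu and Smo changed places, while Gli1 and Gli3 did so in 1 replicate.

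Of the 40 other pathway genes, 35 were detected, and their median level was 12.2 TPM. Of the 5 genes for ligand acylation and release, the secreted Scube3 (13.2 and 11.1 TPM) and Scube1 (14.3 and 9.28 TPM) led and Scube2 was lowest at 0.38 and 0.53 TPM. The 5 genes of GLI turnover ran from Cul1 (90.6 and 97.5 TPM) and Fbxw11 (80.8 and 77.8 TPM) down to Btrc (26.7 and 26.1 TPM). The cilium genes Kif3a (102 and 101 TPM), Ift88 (19.5 and 21.4 TPM), Ift172 (15.3 and 16.2 TPM) and Arl13b (10.5 and 12.9 TPM) were all detected. Among the targets that are not members, Mycn (59.9 and 52.5 TPM) and Olig2 (25.5 and 23.9 TPM) led, and Nkx6-1 was lowest at 0.61 and 0.75 TPM. Several of these genes act in many pathways, so their levels are not a measure of hedgehog signalling.

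**Figure D2:**
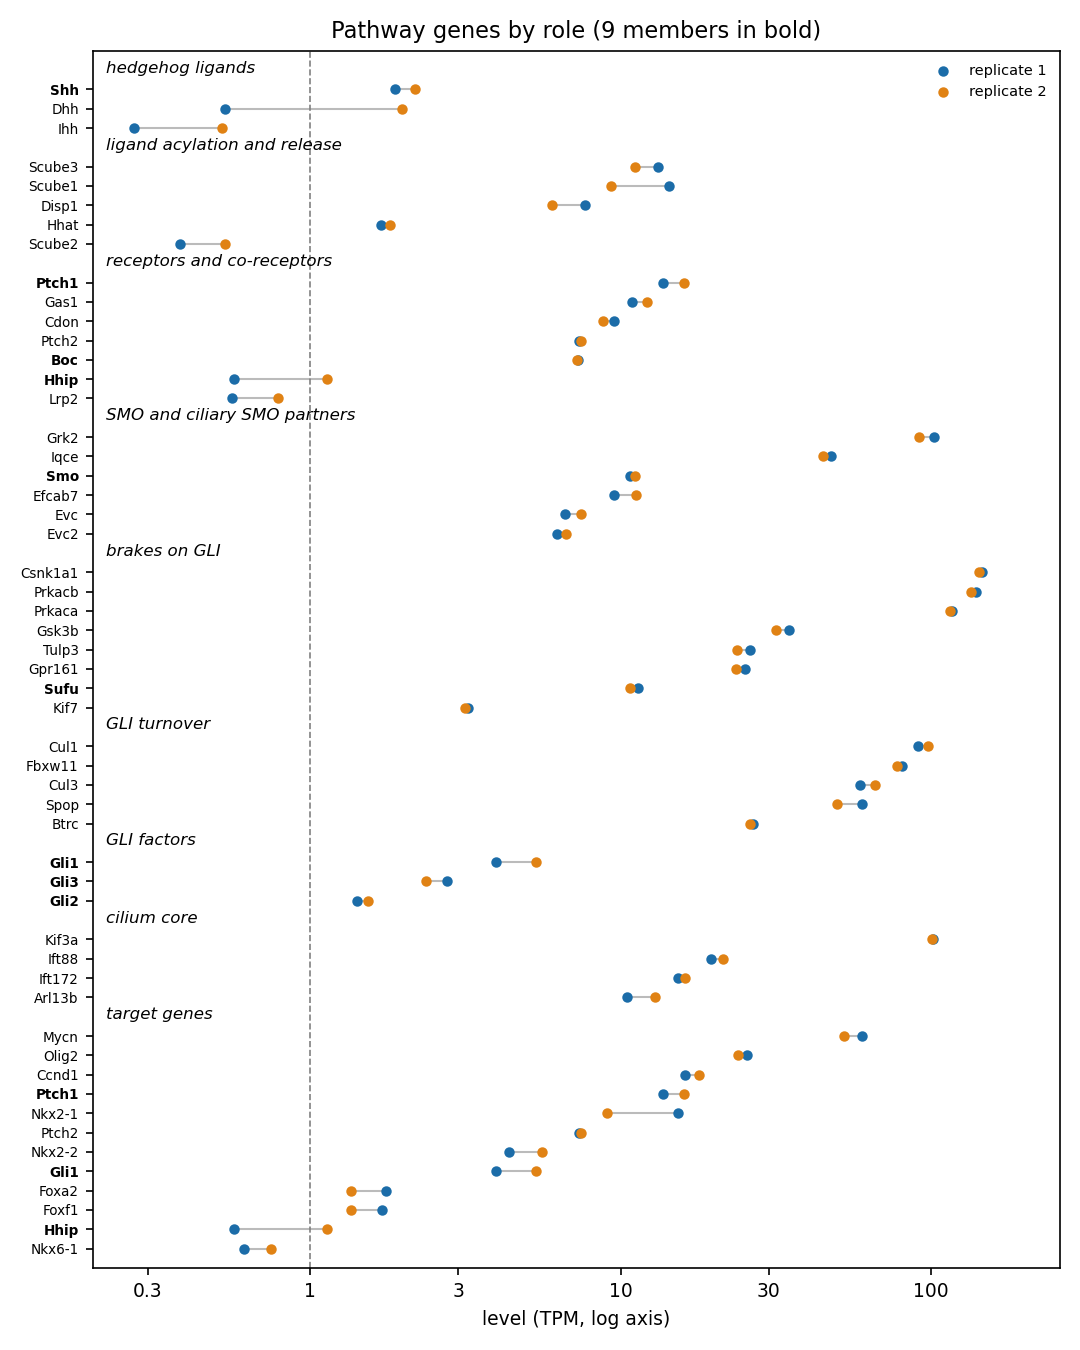
TPM of every pathway gene on a log axis, grouped by role with each gene on its own line, replicate 1 in blue, replicate 2 in orange, members in bold and 1 TPM dashed. The GLI genes lie between 1.41 and 5.35 TPM, under all 5 genes of GLI turnover, and genes that are also targets appear a second time under that role.

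The libraries were compared as the log2 ratio of replicate 1 over replicate 2, on CPM scaled by edgeR's TMM factors. With 1 library a side the ratio has no test, and a gene was counted when past 1.5-fold. Of the 9 members, all of which were tested, 0 were past 1.5-fold higher in replicate 1, where 2.73% of the 18677 genes tested were. Hhip alone was past 1.5-fold higher in replicate 2, where 6.31% of genes were: it was at 0.996 CPM in replicate 1 and 1.67 in replicate 2, 1.67-fold higher in replicate 2 (log2 ratio -0.74). Of all genes tested 6.16% lay farther from 0. Gli1 came next, with 3.97 and 5.35 TPM and a log2 ratio of -0.43, which did not pass 1.5-fold. No member passed 2-fold, as 0.937% of genes did toward replicate 1 and 2.64% toward replicate 2.

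The other ratios were small. Shh was at -0.22, Ptch1 at -0.19, Smo at -0.07 and Gli2 at -0.02, while Gli3 was at 0.15, Sufu at 0.08 and Boc at 0.01. The median over the 9 members was -0.07, against 0.00 over all genes tested (-0.00205). Scaling by library totals turned Boc to -0.04, and no other member changed its sign under TMM, DESeq2 size factors, totals or TPM. By TPM the ratio of Hhip went from -0.74 to -0.99, the only 1 of 36 alternatives for these ratios that moved by more than 0.1. Of the 40 other pathway genes tested 2 were past 1.5-fold higher in replicate 1, Nkx2-1 (15.3 and 9.04 TPM) and Scube1, and 2 in replicate 2, Dhh and Ihh.

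Markers of brain regions were read beside these ratios. The 5 granule cell precursor markers, of which 4 were detected, summed to 165 TPM in replicate 1 and 226 TPM in replicate 2. Past 1.5-fold higher in replicate 2 were 3 of them. These were Zic1 (119 and 162 TPM), which made up most of the sums, Zic2 (16.4 and 26.7 TPM) and Atoh1. Atoh1, the factor that defines these precursors, was at 0.18 and 1.08 TPM and was not detected in both libraries. Barhl1 (8.53 and 10.45 TPM) and Neurod1 (20.7 and 25.6 TPM) did not pass. The 8 Purkinje cell markers summed to 76.2 and 96.2 TPM, with 2 past 1.5-fold higher in replicate 2, Pcp2 (0.91 and 13.69 TPM) and Car8 (3.59 and 8.65 TPM). Others of that list did not pass, such as Foxp2 (28.9 and 24.5 TPM) and Itpr1 (10.98 and 11.23 TPM). Purkinje cells are the cerebellar source of the ligand. The 4 floor plate markers summed to 33.6 and 28.9 TPM, with 0 past 1.5-fold. The 4 ventral hypothalamus markers, of which 2 were detected, summed to 19.1 and 12.3 TPM, with 2 past 1.5-fold higher in replicate 1. These were Nkx2-1 (15.3 and 9.04 TPM), which made up most of the sums, and Nr5a1 (0.56 and 0.32 TPM), which was not detected. The part of these regions, and of the muscle, cartilage and choroid plexus RNA in replicate 2, in the ratios of Hhip, Gli1, Ptch1 and Shh was not tested.

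**Figure D3:**
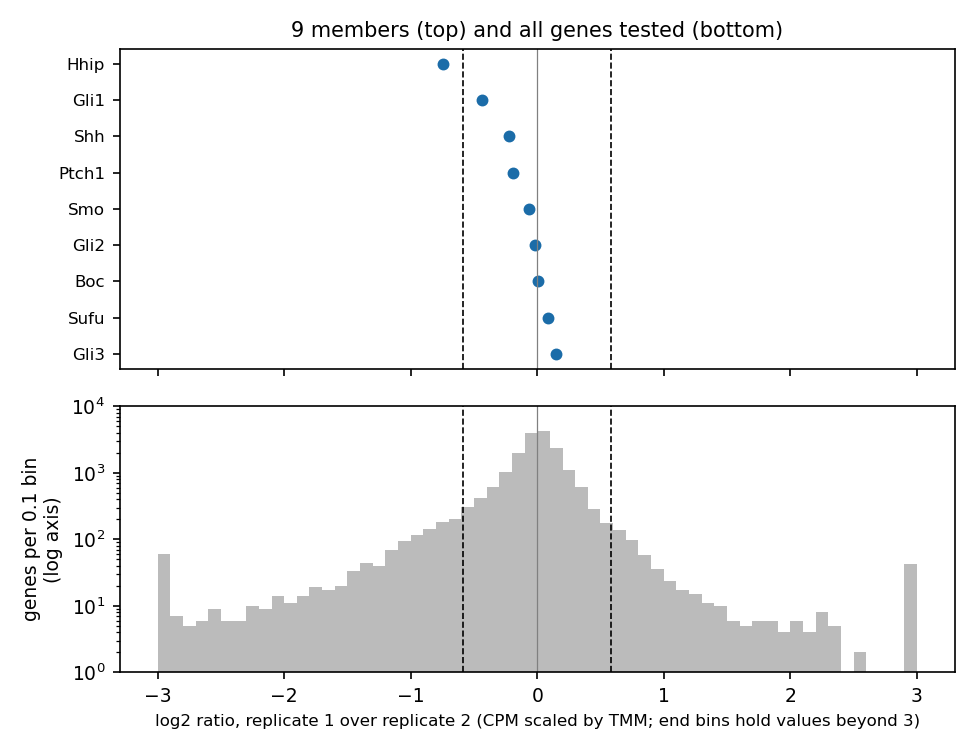
Log2 ratio of replicate 1 over replicate 2 for the 9 members (top) and for all 18677 genes tested (bottom, genes per bin of 0.1 on a log axis), with 1.5-fold dashed. Hhip at -0.74 lies past the line and Gli1 at -0.43 inside it, while the other 7 lie between -0.22 and 0.15.

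Transcript estimates from the deposited tables gave each gene's isoforms. Shh, Smo and Gli1 had 1 annotated transcript each. Gli2-201 took 100% of the TPM of Gli2 in replicate 1 and 92.8% in replicate 2, Gli3-201 took 89.5% and 96.2% of Gli3, and Sufu-201 took 83.4% and 84.0% of Sufu. For Boc, ENSMUST00000023370 took 85.2% in replicate 1 and 90.6% in replicate 2, and Boc-201 took the other 14.8% and 9.38%. The deposited junction file holds 214 reads over the last intron of the first of these and 0 over that of Boc-201 as Ensembl release 65 had it, which is 1 base shorter.

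Hhip was split between a 4582-base coding transcript and a 909-base noncoding one, Hhip-202. Hhip-202 took 45.6% of the TPM in replicate 1 and 57.1% in replicate 2, but 12% and 17.7% of the fragments, since it is short. In the junction file the intron that only Hhip-202 has held 2 reads, while the 8 introns that only the coding transcript has held 8 to 24 reads each. Junction reads and fragments thus lay mostly on the coding transcript.

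For Ptch1 the transcript estimates and the junction reads differed. Ptch1-202 took 79.4% of the TPM of Ptch1 in replicate 1 and 82.5% in replicate 2, and Ptch1-201 took 13.5% and 9.27%. These transcripts begin at different first exons that splice to the same second exon, so their first introns can be counted, a comparison chosen after the values were seen. Of 70 reads into that exon 45 came from the first exon of Ptch1-201 (64.3%, exact 95% interval 51.9% to 75.4%) and 21 from that of Ptch1-204 (interval 19.6% to 42.1%). Only 4 came from that of Ptch1-202 (5.71%, 1.58% to 14.0%). Ptch1-202 also has an intron after the stop codon, shared with Ptch1-206, and this held 87 reads, against 515 reads over the intron before it. The intervals in this and the following paragraphs cover counting error only, and the 2 replicates of the junction file, called R1 and R2, are not tied to a library.

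Annotated introns of the 9 genes were all read at least 5 times in the longest chain of each gene. The number of reads per intron had no slope toward one end in Smo (195 over intron 1 to 419 over intron 5), Sufu (123 over intron 10 to 272 over intron 8) and Shh (50 and 48). Boc ran from 58 reads over intron 1 to 290 over intron 14, Gli3 from 5 over intron 1 to 59 over intron 7, Gli2 from 5 over intron 12 to 45 over intron 7, and Hhip from 8 over intron 4 to 24 over intron 6. With both replicates summed, reads leaned most toward the 3′ end in Ptch1 and Gli1, and less in Gli2, Hhip and Boc. Ptch1 had 45 reads over intron 1 and 639 over intron 21, and the median of its last 11 introns was 2.01-fold that of its first 11.

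In Gli1 the lean was larger. Its first 6 introns had a median of 46.5 reads and its last 6 a median of 181, which is 3.89-fold, with 27 reads over introns 1 and 6 and 262 over intron 11. The first 6 introns held 15.9% of the reads in R1 (70 of 439) and 24.3% in R2 (204 of 838). In the other members with more than 2 introns the last-to-first ratio of the summed reads ran from 0.907 for Gli3 to 1.59 for Gli2, apart from Ptch1. The first 6 introns of Hhip held 28.6% of its 35 reads in R1 and 51.3% of its 119 reads in R2. The share in Hhip thus varied by replicate, while that in Gli2, Ptch1 and Boc was steadier. In R1 and R2 the first 6 of 13 introns of Gli2 held 33.7% and 31.8%. The first 11 of Ptch1 held 31.5% and 31.3%, and the first 9 of Boc 40.8% and 39.8%.

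**Figure D4:**
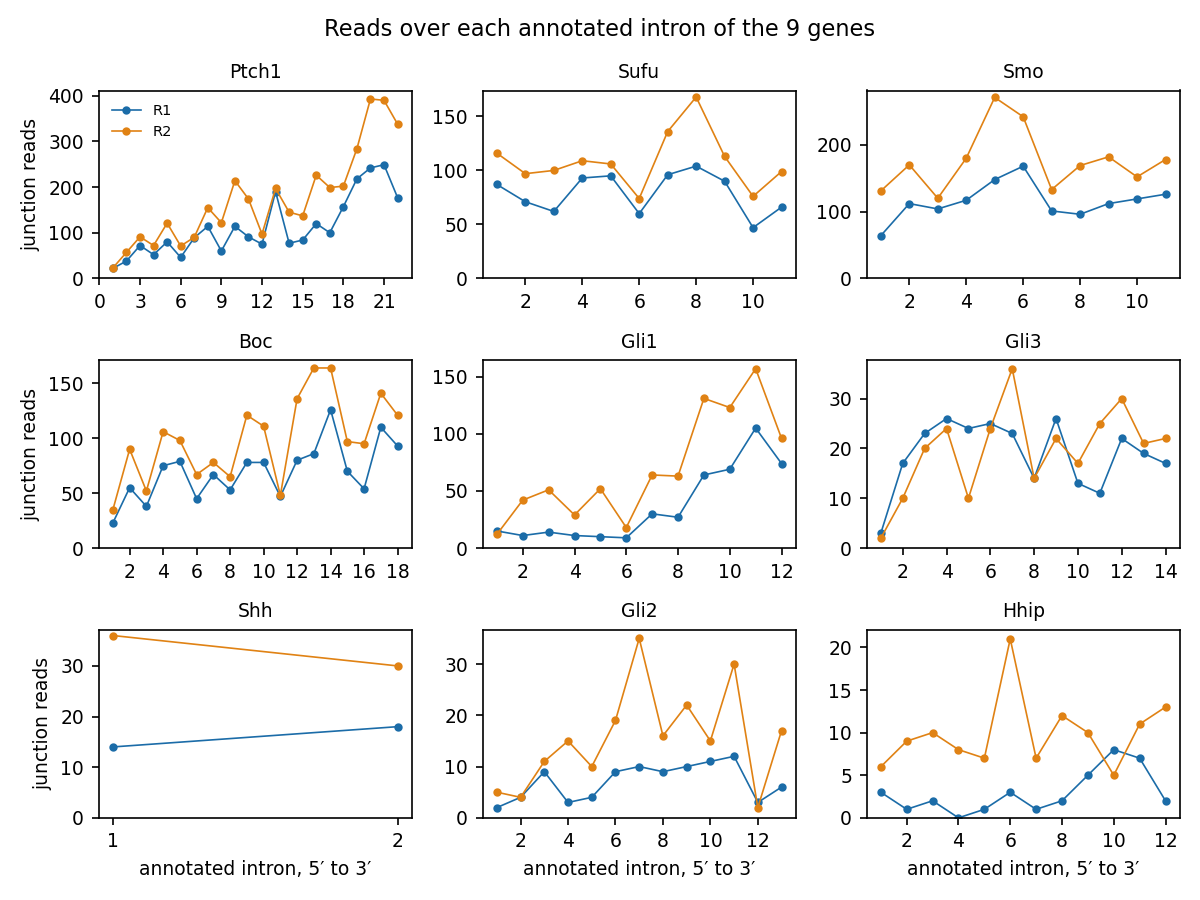
Junction reads (each gene on its own linear axis from 0) over the annotated introns of each member in 5′ to 3′ order, for the mm9 replicates R1 and R2. Reads climb toward the 3′ end in Ptch1, to 639 in all, and in Gli1, to 262, and show no such slope in Smo and Sufu.

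Paired acceptor sites a few bases apart were found in 4 members, and they were singled out after their values were seen. In Sufu, exon 7 began at either of 2 acceptors 3 bases apart (introns from chr19:46525454 to 46527648 or 46527651, mm9). The upstream one, which adds the CAG in capitals above, took 75 of 209 reads (35.9%, 29.4% to 42.8%), with 35 of the 95 reads in R1 and 40 of the 114 in R2. The transcripts with the CAG, Sufu-202 and Sufu-204, had together 11.7% and 9.96% of the TPM of Sufu in replicates 1 and 2.

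Boc used a pair of such sites. At exon 17 (introns from chr16:44487729 to 44487543 or 44487540, mm9) the upstream acceptor, the annotated one, took 149 of 449 reads (33.2%, 28.8% to 37.8%). The downstream one, which drops the CAG and is not in Ensembl release 65, took the other 300. At an exon further 5′ (from chr16:44496364 to 44493089 or 44493086) the downstream acceptor was the annotated one, with 118 of 172 reads, and the upstream one, which adds 3 bases and is not annotated, took 54 (31.4%, 24.5% to 38.9%). In these 3 pairs the upstream site took 31.4% to 35.9% of the reads, with overlapping intervals. In R1 and R2 the downstream share was 63.2% and 64.9% in Sufu, 64.7% and 67.9% at exon 17 of Boc and 67.1% and 69.9% at the other exon. A step of 3 bases is a whole codon. Pairs 11 bases apart, which is not a multiple of 3, were read mostly at the annotated site, with 9 of 99 reads at the other site in Gli1 and 5 of 45 in Gli3.

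Skipped exons were counted where the skipping junction joins annotated exons, and inclusion is the mean of the reads into and out of the exon over that mean plus the skipping reads. Ptch1 had a 127-base exon (chr13:63638790-63638916, mm9) with 13 and 21 reads on its sides and 172 reads that skipped it, an inclusion of 8.99% (5.33% to 14.0%). Its length matches exon 10 of Ptch1-206, whose sequence is shown above with a stop codon near its start, and GENCODE lists that transcript as a target of nonsense-mediated decay. Ptch1-206 took 2.11% of the TPM of Ptch1 in replicate 1 and 1.32% in replicate 2.

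Smo had a 113-base exon inside its first intron (chr6:29702542-29702654, mm9), with 37 and 54 reads on its sides and 195 skipping it, an inclusion of 18.9% (14.3% to 24.6%). It was at 21.5% in R1 and 17.6% in R2, and it is not an exon of Ensembl release 65. Gli3 had a 16-base exon with 3 reads on each side and 40 skipping it (6.98%, 1.46% to 19.1%), and it varied with these few reads, at 2.56% in R1 and 10.6% in R2. No other member had an exon between 5% and 95% inclusion at 20 or more junction reads.

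**Figure D5:**
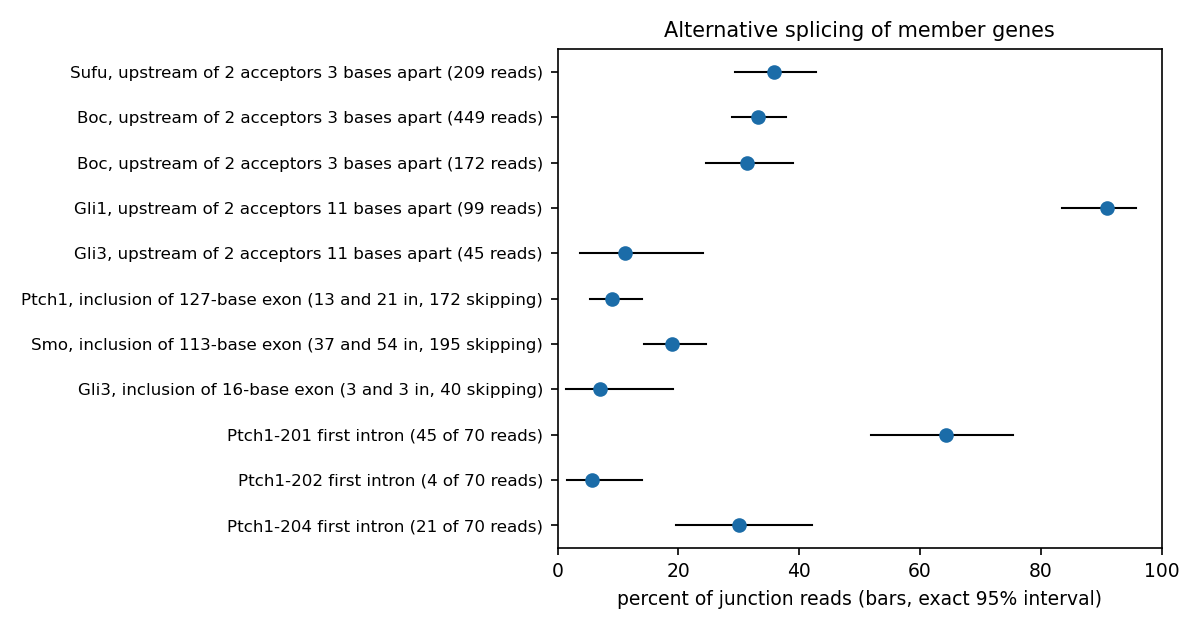
Share of junction reads with its exact 95% interval for the paired acceptors, the skipped exons and the first introns of Ptch1, with both mm9 replicates summed. The upstream acceptors of the 3 pairs that are 3 bases apart lie between 31.4% and 35.9%, and the first intron of Ptch1-202 at 5.71%.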

How the data were processed

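Long RNA was sequenced as stranded paired reads after ribosomal depletion and poly-A selection, per the labels' protocols. The authors deposited, per library on mm10 with GENCODE M4, estimated counts (expected counts), FPKM and TPM for genes and transcripts, and the percent of a gene's TPM per transcript. The authors also deposited mm9 gene values that the files call RPKM (Ensembl release 65) and junction read counts, whose 2 replicates are not tied to a library. The aligner, the quantifier and any use of strand in counting: not given in the sources used here. Arhgap9 overlaps Gli1 on the other strand and had 0.36 and 0.43 TPM.

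Expected counts were rounded for edgeR 4.0.16 (TMM, filterByExpr, prior count 1; DESeq2 1.42.0 as an alternative), in R 4.3.3. Entries other than genes (3.62% and 4.01% of counts) were left out. Symbols and positions came from GENCODE M21. Inclusion needed 20 junction reads, with Clopper-Pearson intervals from SciPy 1.17.1 at the 95% level. Exons skipped by an unannotated junction, and paired acceptors with no annotated site, were left out after a cluster in Smo was seen. Ptch1 first introns on mm9 were matched to GENCODE M21 transcripts by length from the shared second exon. The code for the ratios between libraries was checked on simulated counts with known changes. Alternatives covered units, limits, scalings, pseudocounts, priors, filters and leaving out each library.

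All 9 members, the highest 2 and the lowest other gene of each role (all where a role has 4 or fewer), each member's leading transcripts and its introns with most and fewest reads were named by rule. The members and lists were chosen with earlier results of these data known. The pools are called biological replicates, but nothing says that they came from separate litters. The spread may therefore not be that between litters, and its technical part was not tested.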

Additional observations from a re-analysis of the deposited data

Results flagged for a closer look

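Inside the first intron of Smo the junction file holds 1249 unannotated junctions that span under 1500 bases each, with 3711 reads together, between chr6:29693331 and 29699780 (mm9). No comparison above uses them. They are more reads than the 195 over the annotated intron itself and the 3195 over all 11 annotated introns of Smo. Within the annotated bounds of each other member, 2 to 45 unannotated junctions were listed. What produced these junctions was not tested.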

How the results depend on the processing

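With a limit of 5 TPM 4 of the 9 members were detected, a limit at which all genes were not counted. With an RPKM of 1 in both mm9 replicates 3 members were (Ptch1, Smo and Sufu), beside 10549 of the 37310 genes with mm9 values. The other alternatives gave 7 to 9 members, with 9 without replicate 1 and 8 without replicate 2, and 30 to 38 of the 40 other pathway genes (36 and 35 without replicate 1 and replicate 2). Members past 1.5-fold between libraries stayed at 1 under DESeq2 size factors, library totals, a prior count of 5 and no filter, while a fold limit under 1.5 gave 2 (Hhip and Gli1, both higher in replicate 2, where 12.3% of all genes passed it) and one of 2-fold gave 0. Of 54 alternatives for the ratios between members 1 reversed, Gli3 over Gli1 as CPM without length correction (0.27), and 21 moved by more than the SD between libraries without a change of sign. By fragments the share of Hhip-202 fell to 14.9%, against 51.4% by TPM. TPM scaled over nuclear genes alone raised 7 of the 9 members by more than the SD (Ptch1 to 17.7 TPM). No paired analysis was possible because there is 1 group. Levels of Hhip, with 92 and 233 fragments, rest on the fewest reads.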
